A study of Mus musculus with 12 samples.

Results

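The 10 genes described here are 8 cytochrome P450 genes and 2 nuclear receptor genes, measured in mouse liver across 4 combinations of maternal and offspring diet. They were taken by symbol from the whole table: Cyp3a11 (ENSMUSG00000056035), Cyp3a13 (ENSMUSG00000029727) and Cyp3a25 (ENSMUSG00000029630) of the Cyp3a family, Cyp2c29 (ENSMUSG00000003053), Cyp2c37 (ENSMUSG00000042248) and Cyp2c70 (ENSMUSG00000060613) of the Cyp2c family, Cyp2j5 (ENSMUSG00000052520) and Cyp2j9 (ENSMUSG00000015224) of the Cyp2j family, Nr1i2 (ENSMUSG00000022809), which encodes the pregnane X receptor (PXR), and Nr1i3 (ENSMUSG00000005677), which encodes the constitutive androstane receptor (CAR). All 10 were found among the 12086 genes measured.

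The livers came from wild-type male C57BL/6 mice killed fasted at 12 weeks of age (postnatal day 84), and each group name gives the dam's diet first and the offspring's second. OO animals had an obesogenic-fed dam and ate the obesogenic diet themselves (3 libraries), CO animals had a control-fed dam and ate the obesogenic diet (2 libraries), OC animals had an obesogenic-fed dam and ate the control diet (3 libraries), and CC animals had control diet on both sides (3 libraries). The control diet was RM1 chow with 7% simple carbohydrate and 3% lipid by weight. The obesogenic diet had 10% simple carbohydrate and 20% lipid. Sweetened condensed milk came with it, which held 8% lipid, 8% protein and 55% simple carbohydrate. Dams kept their diet until weaning at day 21, litters were set to 6 pups on day 3, and the offspring diet began at weaning. The sources used here do not say which animals were littermates, and the p-values measure the spread between these libraries.

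PXR and CAR are ligand-responsive transcription factors of the hepatocyte that sense drugs, bile acids, steroids and other foreign or endogenous compounds, and both bind DNA together with the retinoid X receptor. Their best known targets in liver are P450 genes, with Cyp3a11 the standard readout of PXR in mice and Cyp2b10 that of CAR, and genes of conjugation and transport. P450 enzymes of the Cyp3a and Cyp2 families oxidise drugs, steroids, bile acids and fatty acids in the endoplasmic reticulum, using heme and electrons passed on by P450 oxidoreductase. Cyp2b10 was not analysed here.

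Values are the authors' gene counts divided by 1 factor per library, called scaled counts below. The depth recovered from the values was between 3976158 and 27837609 reads per library. Reads behind a single value reached from 20 for Cyp2j9 to 52287 for Cyp3a11 among the 10 genes. The libraries looked like liver by 8 of 10 listed hepatocyte markers that were measured, whose summed scaled counts lay between 50339 and 62379 with no marker at 0. CC livers had the highest of these sums, 60089 to 62379, against 50339 to 56929 in OO, 55197 to 58503 in CO and 52389 to 55710 in OC. Single markers differed in this. Cps1 averaged 3701 in OO, 4607 in CO, 6396 in OC and 11086 in CC, whereas Fabp1 averaged 5311, 4959, 2991 and 2736. The order of the sums therefore depends on which markers are listed and is no measure of hepatocyte content. Several libraries nevertheless stood apart from their groups. A list of acute phase genes (26 of 27 measured) summed to 92547 in CO.1 and 63637 in OC.1, against 19961 to 33141 in the other 9 libraries. Exocrine pancreas genes (15 of 18 measured) were highest in CO.1 with a sum of 4347, in OC.0 with 6823 and in CC.1 with 1020, and the other 8 libraries held 7.46 to 143. Of these genes Pnlip, pancreatic lipase, had 516 in CO.1, 1111 in OC.0 and 162 in CC.1. Since CO.1 is 1 of only 2 CO libraries, results for CO are given below with and without it where they depend on it.

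When both maternal backgrounds were averaged, Cyp3a11, Cyp3a25, Cyp2j9 and Nr1i2 were lower in offspring on the obesogenic diet than in those on the control diet. That is 4 of the 10 genes at an adjusted p under 0.05 by limma's moderated test (Benjamini-Hochberg adjustment over all genes), and none was called higher. Over all 12086 genes 1.72% were called lower and 2.24% higher in the same comparison. The 10 genes were chosen with earlier results of these data known. A larger share among them, here or below, is therefore no test of the set. Cyp3a11 fell 4.94-fold, Cyp2j9 3.57-fold, Cyp3a25 2.85-fold and Nr1i2 1.3-fold on the log2(value + 0.5) scale that all fold changes here use. In RNA from whole liver, fewer cells that express a gene and less of its RNA per cell cannot be told apart. The median log2 fold change was -0.40 over the 10 genes and -0.00 over all genes.

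**Figure D1:**
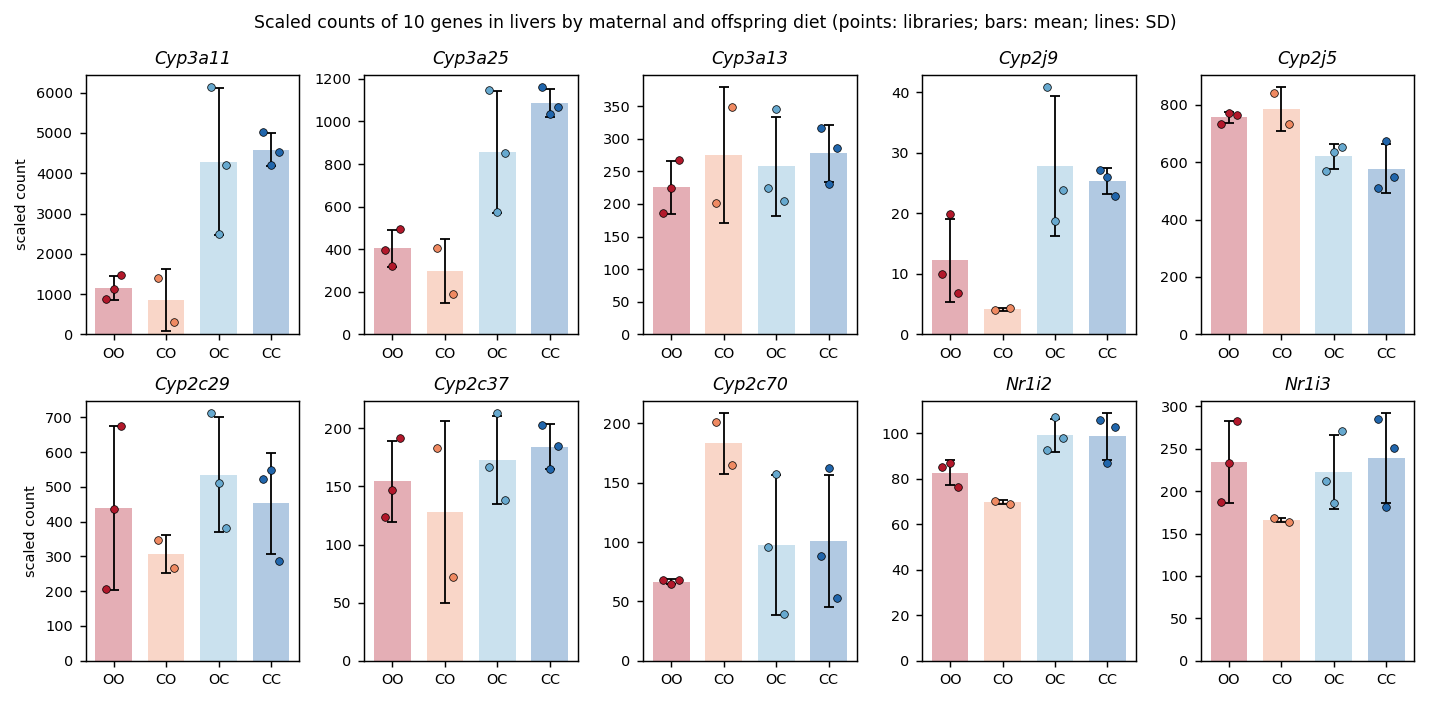
Scaled counts of the 10 genes in liver, 1 panel per gene with its own linear axis from 0, with the groups OO, CO, OC and CC from left to right (points for libraries, bars for group means, lines for 1 SD). Cyp3a11 lay between 313 and 1474 in the 5 libraries of obesogenic-fed offspring, all below the 6 libraries of control-fed offspring at 2496 to 6143, while Cyp3a13 overlapped between the diets.

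Of the receptor genes, Nr1i2, which encodes PXR, was slightly lower with the obesogenic offspring diet. It had 85.3, 86.8 and 76.3 scaled counts in OO livers and 70.3 and 69.0 in CO livers, against 92.6, 107 and 97.9 in OC livers and 106, 87.0 and 103 in CC livers. Each of the 5 values of obesogenic-fed offspring lay below each of the 6 values of control-fed offspring, by a narrow gap between 86.8 in OO.1 and 87.0 in CC.1. The average fall was 0.38 on the log2 scale (log2 fold change -0.38, SE 0.08, 95% interval -0.56 to -0.19, adjusted p = 0.0297 by limma). In single comparisons the log2 fold change was -0.49 for CO against CC (SE 0.12, limma adjusted p = 0.0719) and -0.26 for OO against OC (SE 0.11, limma adjusted p = 0.59), and neither passed the threshold. The first of these passed by DESeq2 (-0.50, adjusted p = 0.0284) and without CC.1 (-0.58, limma adjusted p = 0.0473). The average call was lost under 9 of 20 other settings while its log2 fold change stayed between -0.42 and -0.34. These were leaving out any 1 of CC.0, CC.2, CO.0, CO.1, OC.2, OO.0 and OO.2, and both fits without a pair of libraries, with a limma adjusted p of 0.0525 to 0.124.

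Nr1i3, the gene of CAR, was not called in any comparison. It had 187, 233 and 283 scaled counts in OO livers and 168 and 164 in CO livers, against 212, 186 and 271 in OC livers and 285, 181 and 251 in CC livers. The CO livers held the lowest values and did not overlap with CC, whereas OO spanned nearly the same range as OC. The log2 fold change was -0.50 for CO against CC (95% interval -0.99 to -0.01, limma adjusted p = 0.287) and 0.07 for OO against OC, and the average was -0.22 (95% interval -0.54 to 0.11, limma adjusted p = 0.476). Nr1i3 shares 3304 of its 4414 exon bases with Tomm40l on the opposite strand in the GENCODE M21 annotation, and no source used here gives the strand setting of the authors' counting. Reads of Tomm40l may therefore be part of the value of Nr1i3, and how many is unknown. The level of Nr1i3 divided by that of Nr1i2 ran between 1.74 and 3.71 over the 11 libraries, with OO at 2.19 to 3.71, CO at 2.38 to 2.39, OC at 1.74 to 2.77 and CC at 2.08 to 2.69, and all 4 groups overlapped.

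The Cyp3a genes behaved unequally. Cyp3a11, the main drug- and steroid-oxidising Cyp3a enzyme of the mouse liver, and Cyp3a25, its neighbour on chromosome 5, were lower with the obesogenic offspring diet, and Cyp3a13, which lies apart from that cluster on the same chromosome, was not called. The start regions of both genes that fell are shown because a PXR or CAR site is built from pairs of hexamers of the form AGGTCA or AGTTCA. They are the RefSeq promoters in build GRCm38.p6, from 250 bases before to 50 after the gene start, 5′ to 3′ along the gene on the minus strand, at chr5:145879805-145880104 for Cyp3a11 and chr5:146009569-146009868 for Cyp3a25. Capitals mark the hexamers found on either strand.
Cyp3a11: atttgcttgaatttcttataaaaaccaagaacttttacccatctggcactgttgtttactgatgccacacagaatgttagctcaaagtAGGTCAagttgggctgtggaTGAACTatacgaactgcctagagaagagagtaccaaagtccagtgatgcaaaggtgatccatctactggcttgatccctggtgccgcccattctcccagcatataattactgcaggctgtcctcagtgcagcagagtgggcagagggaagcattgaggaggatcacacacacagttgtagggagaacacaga
Cyp3a25: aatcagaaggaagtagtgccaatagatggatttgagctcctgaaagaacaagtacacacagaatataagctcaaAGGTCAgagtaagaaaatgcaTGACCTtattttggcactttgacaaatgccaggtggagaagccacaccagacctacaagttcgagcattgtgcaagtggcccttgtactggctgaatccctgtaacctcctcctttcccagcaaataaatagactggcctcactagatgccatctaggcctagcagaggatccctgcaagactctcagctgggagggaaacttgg
Cyp3a11 holds AGGTCA starting 162 bases before the gene start and AGTTCA on the other strand at 142 bases before it, with 14 bases between them. Cyp3a25 holds AGGTCA at 176 bases and again on the other strand at 155 bases before its start, with 15 bases between them. AGGTCA occurs in 16% and AGTTCA in 14% of 27025 RefSeq promoters of the same length, and in 5 and 1 of the 10 genes here. Paired forms with the spacings used by these receptors (a direct repeat with 3 or 4 bases between hexamers, or an everted repeat with 6) were searched on both strands as exact repeats of either hexamer, any base being allowed between them. None of the 10 windows held one, and between 0% and 0.0148% of the 27025 promoters did. These promoters were 1 per gene symbol and did not cover every chromosome. For Cyp3a25, which has 2 promoters listed, only the first was searched and shown. Pairs that mix the hexamers, or that differ from them in a letter, were not searched. That a form was not found says only that these letters are not in this window.

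Cyp3a11 had 885, 1127 and 1474 scaled counts in OO livers and 1395 and 313 in CO livers, against 6143, 2496 and 4206 in OC livers and 5030, 4206 and 4526 in CC livers. Every library of an obesogenic-fed animal lay below every library of a control-fed animal, with a gap between 1474 in OO.2 and 2496 in OC.1. Group means were 1162 ± 296 in OO and 854 ± 765 in CO, against 4281 ± 1825 in OC and 4587 ± 415 in CC (SD, n = 3, 2, 3 and 3). The average log2 fold change was -2.30 (SE 0.35, 95% interval -3.07 to -1.53, adjusted p = 0.00542 by limma). This call held under all 20 other settings, with log2 fold changes between -2.84 and -1.61.

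CO.1, with the highest acute phase sum, had the lowest Cyp3a11 of all libraries, and OC.1, with the next highest, had the lowest of the control-fed ones. Saa1 and Saa2, acute phase proteins made in the liver, had 5045 and 7410 scaled counts in CO.1 and 3415 and 4025 in OC.1. In the other 9 libraries Saa1 lay between 14.4 and 389. Without both libraries the average log2 fold change of Cyp3a11 was -1.94 (limma adjusted p = 0.00288). Without CO.1 and OC.0, the pair with the most pancreas transcripts, it was -1.61 (limma adjusted p = 0.017).

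Cyp3a25, a second liver Cyp3a enzyme, had 395, 321 and 496 scaled counts in OO livers and 404 and 190 in CO livers, against 1146, 575 and 853 in OC livers and 1162, 1035 and 1067 in CC livers. The diets did not overlap, and the same libraries, CO.1 overall and OC.1 among control-fed animals, were lowest as for Cyp3a11. The average log2 fold change was -1.51 (SE 0.22, 95% interval -1.99 to -1.03, adjusted p = 0.00407 by limma). It was -1.37 without OC.1 and CO.1 (limma adjusted p = 0.00529) and -1.12 without OC.0 and CO.1 (limma adjusted p = 0.0241).

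Cyp3a13, which is expressed in liver and strongly in intestine, had 186, 224 and 267 scaled counts in OO livers and 202 and 349 in CO livers, against 225, 345 and 204 in OC livers and 317, 230 and 286 in CC livers. All groups overlapped, and CO.1 and OC.1, lowest for the other Cyp3a genes, were the highest here. The average log2 fold change of -0.11 had a 95% interval of -0.51 to 0.28 (limma adjusted p = 0.796), which leaves room for a change in either direction. The ratio of Cyp3a11 to Cyp3a13 was 4.76 to 5.52 in OO and 0.899 to 6.92 in CO, against 7.24 to 27.3 in OC and 15.8 to 18.3 in CC, without overlap between offspring diets. The ratio of Cyp3a11 to Cyp3a25 was 2.24 to 3.51 in OO and 1.65 to 3.45 in CO, against 4.34 to 5.36 in OC and 4.07 to 4.33 in CC. Relative to Cyp3a25, Cyp3a11 was thus lower in each library of obesogenic-fed offspring than in any library of control-fed offspring.

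Near-identical copies limit how these values can be read. Of 50-base windows along the longest coding transcript in GENCODE M21, 14.8% of those of Cyp3a11 occur in other genes, most often Cyp3a41a, and 26.8% of those of Cyp3a25, most often Cyp3a59. Cyp3a13 shared none. Of 6 other listed Cyp3a genes 1 was measured, Cyp3a59, with 11.6, 6.91 and 27.5 scaled counts in OO livers and 19.3 and 8.95 in CO livers, against 36.2, 20.8 and 24.4 in OC livers and 30.9, 30.5 and 42.6 in CC livers. Its groups overlapped between OO and OC, and its average log2 fold change of -1.17 (SE 0.32) missed the threshold by limma (adjusted p = 0.0624), and DESeq2 called it lower.

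**Figure D2:**
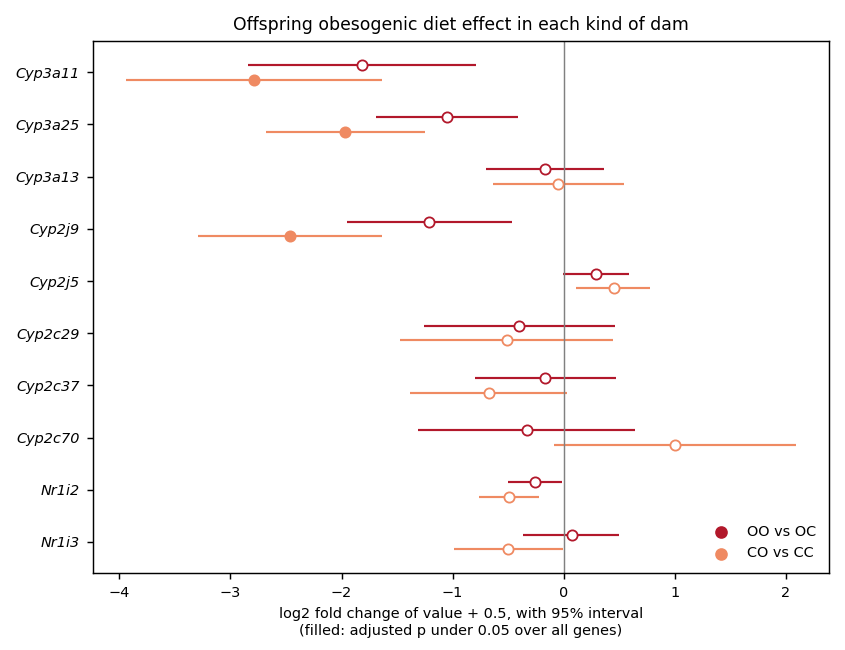
Log2 fold change of value + 0.5 (x axis) for the offspring diet in each of the 10 genes (y axis), with OO against OC in dark red, CO against CC in orange, bars for the 95% interval and filled points for an adjusted p under 0.05 over all genes. For CO against CC the filled points are Cyp3a11 at -2.79, Cyp2j9 at -2.46 and Cyp3a25 at -1.97, and no point is filled for OO against OC.

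With all libraries fitted, limma called none of the 3 Cyp2c genes in any comparison. Mouse Cyp2c enzymes act on fatty acids such as arachidonic acid, drugs and steroids, Cyp2c29 is induced through CAR, and Cyp2c70 makes the muricholic acids, the rodent-specific bile acids. Cyp2c29 had 205, 437 and 675 scaled counts in OO livers and 346 and 268 in CO livers, against 712, 511 and 383 in OC livers and 523, 550 and 286 in CC livers. The groups overlapped throughout, and the spread within OO alone was more than that between the group means, 439 ± 235 in OO, 307 ± 54.9 in CO, 535 ± 166 in OC and 453 ± 145 in CC (SD). On average its log2 fold change was -0.46 (95% interval -1.10 to 0.19, limma adjusted p = 0.442).

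Cyp2c37, an arachidonic acid oxidising enzyme, had 124, 147 and 192 scaled counts in OO livers and 183 and 72.3 in CO livers, against 167, 213 and 138 in OC livers and 203, 165 and 185 in CC livers. All values but that of CO.1 lay between 124 and 213, and the groups overlapped. On average its log2 fold change was -0.42 (95% interval -0.89 to 0.05, limma adjusted p = 0.323). The value rested on which CO library was used: without CO.0 it was -0.75 (limma adjusted p = 0.0327), and without CO.1 it was -0.08 (limma adjusted p = 0.859). For CO against CC it was -0.67 with both, -1.34 without CO.0 (limma adjusted p = 0.0364) and -0.00 without CO.1. Of its 50-base windows 30.1% occur in other genes, most often Cyp2c50, against 2.08% for Cyp2c29 and none for Cyp2c70.

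Cyp2c70 showed another order of the groups. It had 67.9, 64.7 and 67.6 scaled counts in OO livers and 201 and 165 in CO livers, against 95.7, 157 and 39.6 in OC livers and 88.0, 162 and 52.7 in CC livers. Both CO values stood above all others, the 3 OO values were nearly identical, and OC and CC spread over about the same range. Means were 66.8 ± 1.79 in OO and 183 ± 25.3 in CO, against 97.5 ± 58.8 in OC and 101 ± 56.0 in CC (SD). The log2 fold change was 1.0 for CO against CC (95% interval -0.09 to 2.09, limma adjusted p = 0.341), -0.33 for OO against OC (limma adjusted p = 0.908) and -1.44 for OO against CO (95% interval -2.53 to -0.35, limma adjusted p = 0.833). The last of these passed the threshold only when OO and CO were fitted alone (adjusted p = 0.0433). The difference between the diet effects in both maternal backgrounds was -1.33 (95% interval -2.79 to 0.13, limma adjusted p = 0.936).

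The pair of Cyp2j genes had average log2 fold changes of opposite sign. Both belong to a family known for turning arachidonic acid into epoxyeicosatrienoic acids, and in the mouse Cyp2j9 lies between Cyp2j6 and Cyp2j5 on chromosome 4. Their start regions are given because these genes are neighbours whose values differ in direction. They are RefSeq promoters of build GRCm38.p6 on the minus strand, at chr4:96664070-96664369 for Cyp2j5 and chr4:96591436-96591735 for Cyp2j9, written as above with the hexamers in capitals.
Cyp2j5: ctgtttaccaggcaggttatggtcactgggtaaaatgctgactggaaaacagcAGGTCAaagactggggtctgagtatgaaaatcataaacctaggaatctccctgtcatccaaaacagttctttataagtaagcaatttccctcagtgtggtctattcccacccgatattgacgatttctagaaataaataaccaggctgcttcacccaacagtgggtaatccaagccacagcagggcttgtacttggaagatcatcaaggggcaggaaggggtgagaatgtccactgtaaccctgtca
Cyp2j9: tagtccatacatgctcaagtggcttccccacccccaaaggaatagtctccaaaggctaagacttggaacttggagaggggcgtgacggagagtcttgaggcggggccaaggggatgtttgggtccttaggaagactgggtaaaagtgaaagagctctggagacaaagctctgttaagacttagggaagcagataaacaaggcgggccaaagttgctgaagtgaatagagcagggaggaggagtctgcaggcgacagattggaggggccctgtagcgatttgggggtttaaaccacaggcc
Cyp2j5 holds AGGTCA starting 197 bases before its start, and the Cyp2j9 window holds neither hexamer. Aligned to each other the windows were 45.9% identical, against 52.9% for those of Cyp3a11 and Cyp3a25. For Cyp3a13, which was not called, identity was 53.7% with Cyp3a11 and 48.4% with Cyp3a25. Whether identity goes with the direction of change was not tested.

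Cyp2j9, first described in mouse brain, was the lowest of the 10 genes. It had 9.95, 19.9 and 6.86 scaled counts in OO livers and 4.00 and 4.37 in CO livers, against 40.9, 18.7 and 23.9 in OC livers and 27.1, 26.0 and 22.9 in CC livers. CO lay far below CC, whereas OO overlapped with OC through OO.1 alone. The average log2 fold change was -1.84 (SE 0.25, 95% interval -2.39 to -1.28, adjusted p = 0.00313 by limma), and the call held under all 20 other settings with log2 fold changes between -2.04 and -1.62.

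Cyp2j5, an abundant liver and kidney epoxygenase, had 732, 770 and 764 scaled counts in OO livers and 839 and 731 in CO livers, against 570, 635 and 654 in OC livers and 510, 673 and 549 in CC livers. Every value of obesogenic-fed offspring was above every value of control-fed offspring. The average log2 fold change of 0.37 (SE 0.10, 95% interval 0.14 to 0.59) missed the threshold by limma (adjusted p = 0.0707) and passed it by DESeq2 (adjusted p = 0.00884) and without CC.1 (limma adjusted p = 0.0426). The ratio of Cyp2j5 to Cyp2j9 was 38.7 to 111 in OO and 167 to 210 in CO, against 13.9 to 33.9 in OC and 18.8 to 25.9 in CC. In this ratio the diets did not overlap. Cyp2j6, the third measured Cyp2j gene, had means of 89.3 ± 5.91 in OO and 88.6 ± 15.1 in CO, against 62.5 ± 5.08 in OC and 71.1 ± 7.13 in CC (SD), with an average rise of 0.41 on the log2 scale (adjusted p = 0.0323 by limma).

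Across both maternal backgrounds the 5 obesogenic-fed libraries thus did not overlap with the 6 control-fed ones for Cyp3a11, Cyp3a25 and Nr1i2 (lower) and Cyp2j5 (higher). This held for 3.84% of all genes in either direction.

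**Figure D3:**
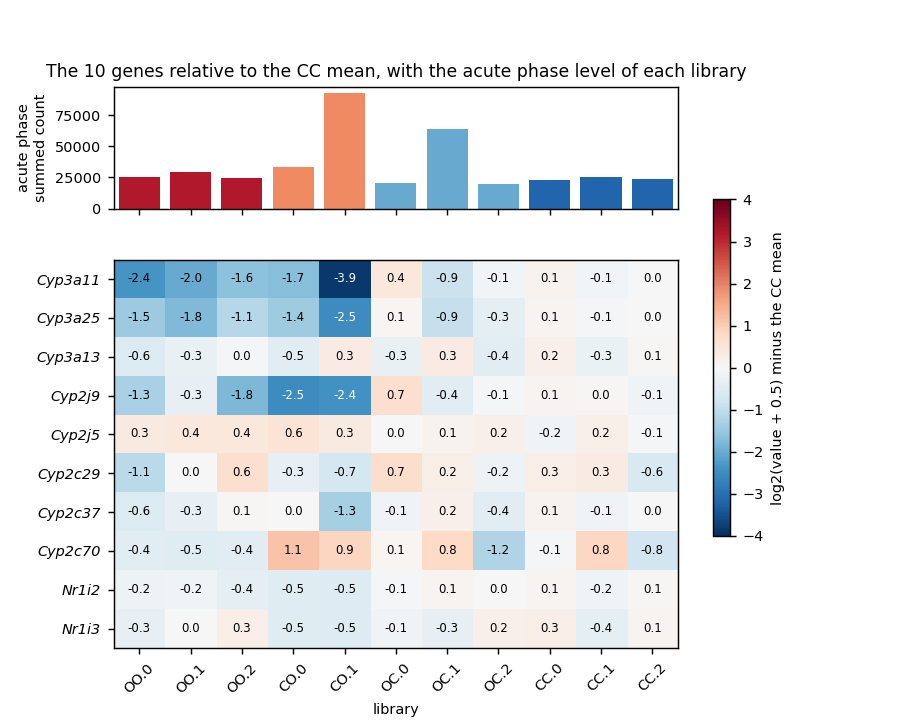
Above, bars give the summed scaled count of the acute phase list for each of the 11 libraries, in the order OO, CO, OC and CC. Below, a heatmap gives log2(value + 0.5) minus the CC mean for the 10 genes (rows) in the same libraries. Cyp3a11, Cyp3a25 and Cyp2j9 are below 0 in all 5 libraries of obesogenic-fed offspring, and OC.1, with a high acute phase bar, is the lowest control-fed library for all 3.

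Within offspring of control-fed dams, Cyp3a11, Cyp3a25 and Cyp2j9 fell in CO against CC. These 3 of 10 genes compare with 0.778% of all genes called lower there, and none of the 10 was called higher, against 1.01% of all genes. The log2 fold changes were -2.79 for Cyp3a11 (SE 0.52, limma adjusted p = 0.0298), -2.46 for Cyp2j9 (SE 0.38, limma adjusted p = 0.0152) and -1.97 for Cyp3a25 (SE 0.33, limma adjusted p = 0.0175). Groups did not overlap for 5 genes that were lower (these 3, Nr1i2 and Nr1i3) and 2 that were higher (Cyp2j5 and Cyp2c70), but with 2 CO libraries the same was true of 35% of all genes. Without CO.1, 0 of the 10 genes were called, and calls over all genes numbered 29 against 216 with it. The log2 fold change of Cyp2j9 was then -2.52 (limma adjusted p = 0.0744), that of Cyp3a25 -1.43 (limma adjusted p = 0.118) and that of Cyp3a11 -1.71 (limma adjusted p = 0.148). Without CO.0 the value of Cyp3a11 was -3.87. Leaving out CC.0 or CC.2 also left 0 calls, with 23 and 19 calls over all genes, while the fold changes of the 3 genes hardly moved: Cyp3a11 was at -2.72 and -2.80, Cyp3a25 at -1.92 and -1.98, and Cyp2j9 at -2.41 and -2.53. Of the 10 genes edgeR called 2 and DESeq2 4, where they called 156 and 466 of all genes.

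Within offspring of obesogenic-fed dams none of the 10 genes passed the threshold by limma for OO against OC, where 0.165% of all genes did. An unadjusted p under 0.05 was found for 4 of the 10 and for 8.01% of all genes. Calls among the 10 numbered 0 with edgeR and 3 with DESeq2, and over all genes 23 with edgeR and 106 with DESeq2. Cyp3a11 had a log2 fold change of -1.82 (95% interval -2.84 to -0.79, limma adjusted p = 0.292), Cyp2j9 one of -1.21 (95% interval -1.95 to -0.47, limma adjusted p = 0.314) and Cyp3a25 one of -1.05 (95% interval -1.69 to -0.41, limma adjusted p = 0.314). Without OC.1 and CO.1 the log2 fold changes were -2.16 for Cyp3a11 and -1.31 for Cyp3a25. Without CO.0 or CO.1 that of Cyp3a11 stayed at -1.82, since CO libraries enter this comparison only through the shared spread. Groups did not overlap for Cyp3a11, Cyp3a25 and Nr1i2 (lower in OO) and Cyp2j5 (higher in OO), 4 of the 10 genes against 12.7% of all genes.

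Whether the maternal diet changed the response was tested directly. The difference of the diet effects, OO against OC minus CO against CC, was 1.25 for Cyp2j9 (95% interval 0.15 to 2.36, unadjusted p = 0.0298, limma adjusted p = 0.936). It was 0.97 for Cyp3a11 (95% interval -0.57 to 2.51) and 0.91 for Cyp3a25 (95% interval -0.04 to 1.87), both with a limma adjusted p of 0.936. A smaller fall in offspring of obesogenic-fed dams was thus not shown for any of the 10 genes: 0 passed by limma, edgeR or DESeq2, and 0.0331% of all genes passed by limma. An unadjusted p under 0.05 was found for 1 of the 10 and for 4.56% of all genes. For Cyp3a11 the estimate rested on CO.1. Without that library the log2 fold change was -1.71 for CO against CC and -1.82 for OO against OC. Without OC.1 alone these were -2.79 and -2.16, and without both libraries the difference was -0.45.

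For the maternal diet none of the 10 genes passed the test. In control-fed offspring (OC against CC) all 10 overlapped, where 11.5% of all genes did not. There log2 fold changes lay between -0.40 and 0.25, 0 of the 10 genes had an unadjusted p under 0.05 (5.26% of all genes), and limma, edgeR and DESeq2 called 0, as they did over the whole table (0%). For Cyp3a11 the log2 fold change was -0.19 (95% interval -1.22 to 0.84).

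In obesogenic-fed offspring (OO against CO), 0 of the 10 genes passed by limma, edgeR or DESeq2, and 0.0414% of all genes passed by limma. An unadjusted p under 0.05 was found for 2 of the 10 and for 5.92% of all genes. Cyp2j9 was higher in OO with a log2 fold change of 1.31 (95% interval 0.49 to 2.14, limma adjusted p = 0.758), and Cyp2c70 was lower, as given above. Nr1i2 and Nr1i3 were also higher in each OO library than in both CO libraries, in a comparison where 20% of all genes did not overlap. Averaged over offspring diets, the maternal diet gave log2 fold changes of 0.69 for Cyp2j9 and -0.78 for Cyp2c70 (both limma adjusted p = 0.789). Here 0 of the 10 genes passed by any of the 3 tools, and 0.0331% of all genes passed by limma. An unadjusted p under 0.05 was found for 2 of the 10 and for 6.13% of all genes.

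Levels of different genes can be set side by side only per length, which was done with the longest coding transcript in GENCODE M21. In OO livers mean scaled counts per kilobase were 496 ± 126 for Cyp3a11, 322 ± 8.68 for Cyp2j5, 246 ± 132 for Cyp2c29 and 202 ± 44.0 for Cyp3a25, and lower for the other 6 genes (SD, n = 3). In CO livers Cyp3a11 at 364 ± 326 and Cyp2j5 at 335 ± 32.6 lay within their spread (SD, n = 2). In OC livers Cyp3a11 stood at 1826 ± 778 and Cyp3a25 at 429 ± 143. In CC livers the order of means was Cyp3a11 (1957 ± 177), Cyp3a25 (544 ± 33.2), Cyp2c29 (254 ± 81.4), Cyp2j5 (246 ± 36.3), Cyp2c37 (101 ± 10.4), Cyp3a13 (93.9 ± 14.9), Nr1i3 (80.2 ± 17.8), Cyp2c70 (58.8 ± 32.6), Nr1i2 (38.6 ± 4.02) and Cyp2j9 (12.4 ± 1.06). The neighbours Cyp2c29 and Cyp2j5 differed there by less than their SDs, and from Cyp2c37 down to Nr1i2 no neighbours differed by more than the larger of their SDs. Reads of Tomm40l may be part of the value of Nr1i3.

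Other P450 genes of the same families showed a mixed picture. Of 42 other listed Cyp2 genes, 22 were measured, of which 2 rose and 2 fell in the average comparison, where 2.24% of all genes rose and 1.72% fell. Their median log2 fold change was -0.34, against -0.00 over all genes. Cyp2c38, a near neighbour of Cyp2c29, had means of 45.5 ± 36.5 in OO and 11.2 ± 6.94 in CO, against 83.7 ± 22.8 in OC and 67.9 ± 33.3 in CC (SD), and fell by 1.94 on the log2 scale (limma adjusted p = 0.0482). Cyp2c68 averaged 78.0 ± 21.8 in OO and 63.5 ± 10.2 in CO, against 123 ± 13.9 in OC and 114 ± 12.7 in CC, and fell by 0.76 (limma adjusted p = 0.0115). Cyp2d40 averaged 99.9 ± 12.9 in OO and 106 ± 8.32 in CO, against 62.9 ± 24.2 in OC and 52.0 ± 17.0 in CC, a rise of 0.90 (limma adjusted p = 0.0322), and Cyp2j6 is the other that rose. Of the listed genes of the aryl hydrocarbon receptor and its Cyp1 targets, 5 of 8 were measured and 0 were called by limma or edgeR, 1 was called by DESeq2, and 1 had an unadjusted p under 0.05. Among them Nqo1, with the smallest p, had an average log2 fold change of -0.83 (SE 0.24) that missed the threshold (limma adjusted p = 0.0725). Cyp1a2, the constitutive liver Cyp1 enzyme, had one of -0.03.

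A list of genes linked to PXR or CAR, made up mainly of conjugating enzymes and transporters, held more genes that fell than rose. Of 36 listed genes 33 were measured, 9 fell and 1 rose in the average comparison, with a median log2 fold change of -0.30. Over all genes 1.72% fell and 2.24% rose there. The list was made with earlier results of these data known. Ugt1a9, a glucuronosyltransferase, had 71.6, 91.2 and 131 scaled counts in OO livers and 78.6 and 37.0 in CO livers, against 259, 191 and 251 in OC livers and 227, 243 and 252 in CC livers. The diets did not overlap, and the log2 fold change was -1.71 (SE 0.20, adjusted p = 0.00129 by limma). The glutathione transferases Gsta4 and Gstm1 fell by 1.34 each (limma adjusted p = 0.00599 and 0.00722), and the carboxylesterase Ces2a fell by 1.21 (limma adjusted p = 0.00563). The other 5 that fell were the transporters Slco1a4 and Abcc3, the glutathione transferase Gsta2, the glucuronosyltransferase Ugt2b35 and Gadd45b, a stress-response gene that is neither a conjugating enzyme nor a transporter. The organic anion transporter Slco1b2 averaged 2244 ± 179 in OO and 2269 ± 308 in CO, against 1539 ± 194 in OC and 1349 ± 150 in CC (SD), a rise of 0.65 on the log2 scale (limma adjusted p = 0.0188). Of the same list 5 fell and 0 rose in CO against CC (Ugt1a9, Gstm1, Gsta4, Slco1a4 and Gsta2), where 0.778% of all genes fell and 1.01% rose. For OO against OC, 0 were called by limma or edgeR, 5 by DESeq2 (1 higher, 4 lower), and 12 had an unadjusted p under 0.05, as did 8.01% of all genes. Ugt1a1, another glucuronosyltransferase, had an average log2 fold change of -0.12 (limma adjusted p = 0.569), and Abcc2, the canalicular export pump, one of -0.13 (limma adjusted p = 0.643).

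**Figure D4:**
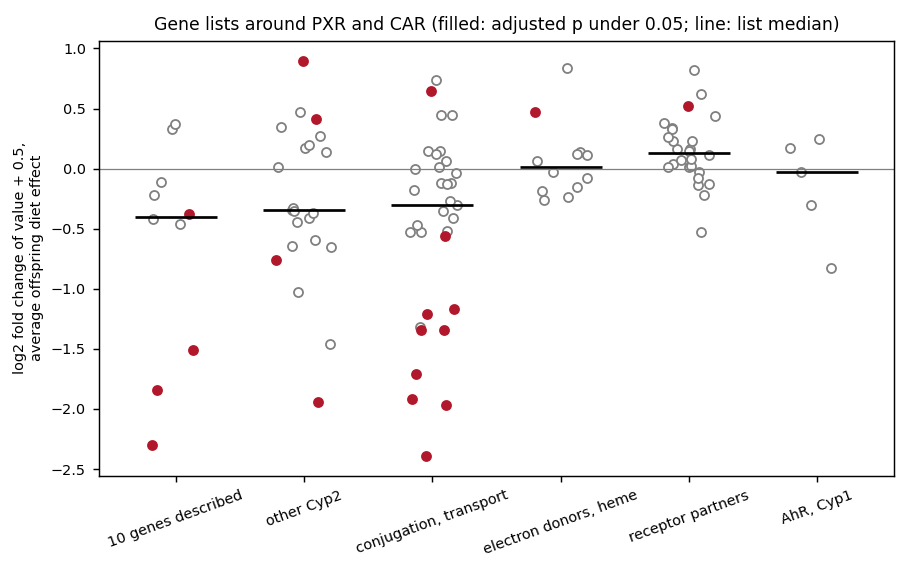
Log2 fold change of value + 0.5 for the average offspring diet (y axis) of every measured gene in 6 lists (columns), with points for genes, filled for an adjusted p under 0.05, and a line at each list's median. Of the conjugation and transport list 9 of 33 genes fell and 1 rose, and of the 10 genes described here 4 fell. Over all genes 1.72% fell and 2.24% rose.

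Among partner proteins of the receptors and P450 cofactor genes few were called. Of 27 listed dimer partners, coregulators and upstream factors 26 were measured and 1 rose, Cebpb, a liver transcription factor, by 0.52 (limma adjusted p = 0.0433). In this average comparison, used also for the cofactor genes below, 2.24% of all genes rose. Rxra, the retinoid X receptor that pairs with PXR and CAR, had an average log2 fold change of 0.34 (limma adjusted p = 0.132), and the coactivator gene Ppargc1a one of -0.53 (limma adjusted p = 0.0982). Hnf4a, a hepatocyte factor that acts on many P450 genes, was at -0.08 (limma adjusted p = 0.736). Of 12 genes of heme synthesis and electron supply 1 rose, Cpox, an enzyme of heme synthesis, by 0.47 (limma adjusted p = 0.0173). Alas1, the rate-limiting enzyme of that pathway, averaged 888 ± 306 in OO and 1234 ± 77.1 in CO, against 506 ± 210 in OC and 704 ± 204 in CC (SD), a log2 fold change of 0.84 that missed the threshold (limma adjusted p = 0.0653). Por, the P450 oxidoreductase, had one of -0.26 (limma adjusted p = 0.483).

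Some cell type and zonation markers moved with the same diet. Of 13 listed periportal genes 6 fell in the average comparison, where 1.72% of all genes fell and 2.24% rose. Their summed scaled counts were 5815 to 9886 in OO and 6506 to 7613 in CO, against 8672 to 10281 in OC and 10453 to 11323 in CC. Pericentral genes (11 of 12 measured), the zone in which most P450 genes are expressed, summed to 9633 to 14570 in OO and 10821 to 14261 in CO, against 8290 to 11015 in OC and 9430 to 11561 in CC, with 1 higher and 1 lower by the test. Most of each sum was Cyp2e1, itself a P450 gene, with 6968 to 9537 in OO, 7565 to 10618 in CO, 5455 to 7866 in OC and 6448 to 8294 in CC. The sum therefore mainly follows that gene. Of the acute phase list, whose sums are given above, 4 of 26 measured genes rose and 0 fell on average (Steap4, Il1rn, Saa4 and Stat3), 25 had a log2 fold change above 0, and the median was 0.61. The maternal backgrounds differed in this. For CO against CC, which holds CO.1, 26 were above 0 with a median of 1.45 and 4 called higher, as were 1.01% of all genes. For OO against OC, 12 were above and 14 below 0, with a median of -0.05 and 0 called. Cholangiocyte genes (4 of 7 measured) summed to 44.4 to 74.8 in OO and 51.8 to 60.2 in CO, against 31.1 to 43.0 in OC and 26.6 to 43.0 in CC, without overlap between the offspring diets. Of these 4 genes 0 were called by limma or edgeR and 1 by DESeq2, and 3 had an unadjusted p under 0.05. Macrophage genes (13 of 13 measured) summed to 791 to 797 in OO and 716 to 747 in CO, against 544 to 842 in OC and 467 to 621 in CC, and 1 rose. Neutrophil genes (3 of 9 measured) summed to 6.37 to 8.85 in OO and 11.8 to 33.2 in CO, against 5.17 to 7.05 in OC and 3.45 to 5.98 in CC, and 1 rose, S100a8. Stellate cell genes (10 of 10 measured) summed to 513 to 691 in OO and 550 to 551 in CO, against 467 to 569 in OC and 436 to 454 in CC, with 0 called by limma, edgeR or DESeq2 and 5 at an unadjusted p under 0.05. Of the 8 hepatocyte markers measured, limma and edgeR called 1 lower on average, and DESeq2 called 1 lower and 1 higher. The part of these lists in the values of the 10 genes was not tested. Since P450 expression differs between the sexes, 12 genes with male-biased and 13 with female-biased liver expression were also listed. All 12 of the first and 2 of the second were measured, and limma and edgeR called 0 of either list for the average offspring diet. DESeq2 called 1 male-biased gene lower, and an unadjusted p under 0.05 was found for 4 male-biased and 2 female-biased genes.

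The genes whose pattern over the 11 libraries was most like that of Cyp3a11 were Etnppl, Ugt1a9, Gsta4, Abca6 and Ing2, with Pearson r of 0.977, 0.976, 0.971, 0.95 and 0.947 of log2 values among 9317 genes ranked. Etnppl, a periportal ethanolamine-phosphate lyase, averaged 69.6 in OO and 38.4 in CO, against 234 in OC and 318 in CC. Those most like Nr1i3 were Tomm40l (0.967), which overlaps it, Gpat3 (0.926), Aifm2 (0.897), Pex11a (0.894) and Map1lc3a (0.881). These correlations describe libraries that share their diet groups and differ in depth.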

How the data were processed

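RNA sequencing was done on whole liver of 11 male offspring in 4 diet groups, 1 library each, with CO at 2 libraries of 3 labelled samples. The deposited values, called CPM by the authors, are a signal. They behave as gene counts that were each divided by a scaling factor of their library: 95.73% to 97.34% of a library's values were whole multiples of 1 read's value (tolerance 0.01), and column totals ran from 929699 to 1099404. Reads were aligned with Bowtie 1.2.3 to mm8, per the submitters' processing notes. The counter, its strand setting and its annotation are unknown here, so reads of near-identical genes may be shared. Column names gave a library's group only.

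Values were tested with limma 3.58.1 with an intensity trend on log2(value + 0.5), 1 mean per group over all 11 libraries (7 residual and 4.66 prior degrees of freedom), with Benjamini-Hochberg adjustment over 12086 genes at 0.05. A filter asked for at least 3 libraries with a value of 1 or more, and every gene passed it. The 7 comparisons set CO against CC, OO against OC, OC against CC and OO against CO, with the first pair averaged (offspring diet), the second pair averaged (maternal diet), and the first pair subtracted from each other. Recovered depth was 3976158 to 27837609 reads, and a floor of 3 reads was a scaled count of 0.1 to 0.829, which covers counting error only. Symbols were matched by Ensembl identifier (11965 genes).

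The 10 genes and all gene lists were chosen with earlier results of these data known. All 10 genes were tested in each comparison and are described by library. In some comparisons only some of the 10 are named with their own fold change. Other genes were named by a rule: up to 4 genes of each list by smallest p, and the 5 most correlated with Cyp3a11 and Nr1i3 (mean value of at least 5). Cyp1a2, Ugt1a1, Abcc2, Hnf4a, Por, Slco1b2, Slco1a4, Gsta2, Abcc3, Gadd45b, Ugt2b35, Steap4, Il1rn, Saa4, Stat3 and S100a8 fall outside that rule and were chosen with their values in view. Alternatives were edgeR 4.0.16 and DESeq2 1.42.0 on recovered reads, other pseudocounts, scalings and filters, and leaving out libraries. Promoters are RefSeq's in GRCm38.p6, and transcript lengths GENCODE M21's, matched for all 10 genes by symbol.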

Additional observations from a re-analysis of the deposited data

How the results depend on the processing

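For the average offspring diet, Cyp3a11, Cyp3a25 and Cyp2j9 stayed lower and past the threshold under all 20 alternatives, with adjusted p-values of up to 0.0184, 0.0241 and 0.0301, while Nr1i2 missed it under 9. Over all genes that comparison called 134 to 770 genes, against 479. Calls in single comparisons depended on single libraries, also where the fold change hardly moved. For CO against CC, 0 to 4 of the 10 genes were called when 1 library was left out (0 without CO.1, CC.0 or CC.2), and 0 without OC.1 and CO.1 or without OC.0 and CO.1. For OO against OC, the count was 3 by DESeq2, 2 without OC.1 and CO.1, and 0 to 1 when 1 library was left out. For OO against CO it was 1 with only those groups fitted.

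Some log2 fold changes that had not passed the test changed sign, among them Cyp3a11 in OO against CO (0.78) and in the difference of diet effects (0.97). Without OC.1 and CO.1, OO against OC gave 0.06 for Cyp3a13, 0.11 for Cyp2c70 and -0.06 for Nr1i3 on the log2 scale. For Cyp3a11 the same setting gave 0.15 in OC against CC, -0.29 in OO against CO (also without OC.0 and CO.1) and -0.45 in the difference of diet effects. With 1 library left out at a time, Cyp3a13 ran from -0.45 to 0.34 in CO against CC, from -0.32 to 0.06 in OO against OC and from -0.31 to 0.09 on average. OO against OC ran from -0.79 to 0.07 for Cyp2c29, from -0.87 to 0.11 for Cyp2c70 and from -0.08 to 0.22 for Nr1i3. Cyp3a11 ran from -0.50 to 0.15 in OC against CC, from -0.29 to 1.86 in OO against CO and from -0.10 to 2.05 in the difference. The cause of these changes was not tested. When a CO library is left out, the spread of the remaining one is assumed to equal that of the other groups. No paired analysis was possible because the columns carry no replicate number from the labels. The median log2 fold change of all genes lay between -0.006 and 0.01 as deposited and between -0.008 and 0.008 under median-of-ratios scaling.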
